A study of Danio rerio with 8 samples.

Results

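The genes described here encode phosphoinositide kinases and phosphatases, the enzymes that add or remove phosphates on the inositol ring of membrane lipids, with a few of their regulatory subunits and partners. They were chosen by gene name, from a set of symbol beginnings, among them pik3, pi4k, pip4k, pip5k, pip4p, pikfyve, fig4, vac14, mtm1, mtmr, inpp, ocrl, synj and sacm1l, without pik3c3 and pik3r4, which belong to the class III kinase complex. The choice gave 71 of the 24221 genes in the deposited table, and no row began with fig4. RNA came from zebrafish macrophages of the TL strain, marked by GFP under the mpeg promoter and sorted by flow cytometry from larvae of 6 days. Of the 8 libraries, 4 were of the rraga mutant genotype, whose allele the labels do not name, and 4 of wild-type siblings. All larvae had been raised in water with methylene blue and PTU and had been sorted into the genotypes by confocal imaging on days 4 and 5. The labels call the libraries biological replicates without giving the number of larvae or clutches in each, so p-values measure the spread between these libraries. The product of rraga, RagA, is a GTPase of the lysosome surface through which amino acids bring in the growth kinase mTORC1.

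Phosphatidylinositol can be phosphorylated at several positions, and each product marks a different membrane. On endosomes, phosphatidylinositol 3-phosphate (PI3P) is converted by the kinase PIKfyve, held in a complex with the scaffold Vac14 and the phosphatase Fig4, to PI(3,5)P2, a lipid needed for lysosome size and for the opening of lysosomal channels. Myotubularins remove the 3-phosphate again. At the plasma membrane, PI4P is made into PI(4,5)P2 and class I PI3-kinases convert that to PIP3, which recruits AKT. SHIP phosphatases take the 5-phosphate off PIP3. Macrophages use the endosomal lipids to mature phagosomes and PIP3 to migrate and engulf. Compartments and roles were assigned from general knowledge of these enzymes, most of it from mammals and yeast.

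Of the 71 genes, 60 had enough reads to be tested, and the 11 others held 0 to 39 reads per library. Of 30 tested endolysosomal genes 11 rose and 4 fell, led by pikfyve at 4.22-fold and pip4p2 at 4.78-fold. Of 23 tested plasma membrane genes 3 rose and 3 fell, among them the PI3-kinase gene pik3ca, which rose 1.74-fold, and the leukocyte PI3-kinase gene pik3cd, which fell 2.10-fold. In the remaining compartments 2 of 7 tested genes rose. Together 16 of 60 rose and 7 fell by edgeR's quasi-likelihood test at an adjusted p under 0.05, or 38.3% of those tested. Over all 16086 tested genes 28.4% were called, 14.5% higher and 13.9% lower. The share was 50% among endolysosomal genes, and 26.1% among plasma membrane genes, close to the background in this fit, which does not pair libraries. These shares depend on the assignment: synj2bp and inpp5l, which did not pass, were moved to the other compartments after the table was seen. The endolysosomal genes include 4 myotubularins without activity, of which 3 were called. With libraries of the same number paired, 15 of 30 endolysosomal and 11 of 23 plasma membrane genes were called, against 34.4% of all tested genes. The median log2 fold change, mutant over sibling, was 0.17 for endolysosomal genes, 0.03 for plasma membrane genes and -0.09 for all tested genes. That the endolysosomal genes were called more often than those of the plasma membrane was not tested. The mutant and sibling libraries did not overlap in 16 of 60 genes that were higher and 8 that were lower, where 15.7% of all tested genes were higher and 15.7% lower without overlap.

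With library sizes left unscaled, the median of all tested genes moved to -0.26, and 11 members were higher and 13 lower (45.8% of calls higher, against 69.6% with TMM factors). Over all tested genes 29.7% were then called, and 34.7% of those calls were higher, against 51.1% with TMM factors. Among endolysosomal genes 9 were then higher and 7 lower, and among plasma membrane genes 2 and 6. CPM are counts relative to library size, scaled by TMM factors except in the filter that follows. A filter of 5 CPM in 4 libraries, taken before TMM scaling, gave 15 higher and 11 lower members. It called 42.0% of the 9580 genes it kept. This filter also dropped scarce members, mtmr7b among them, so its member calls are not out of the 60 tested. Without sibling library 5, 8 endolysosomal genes were higher and 1 lower. Of the 16431 genes tested without that library 22.9% were called, and 55.6% of those calls were higher. With replicate number as a block, which pairs libraries of the same number, 10 endolysosomal genes were higher and 5 lower. In that fit 5 plasma membrane genes were higher and 6 lower, while calls over all tested genes went from 28.4% to 34.4%. Of the 23 calls, 14 passed under each of 17 alternative settings, 10 of them higher and 4 lower, and the 9 that did not are named beside their values.

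**Figure D1:**
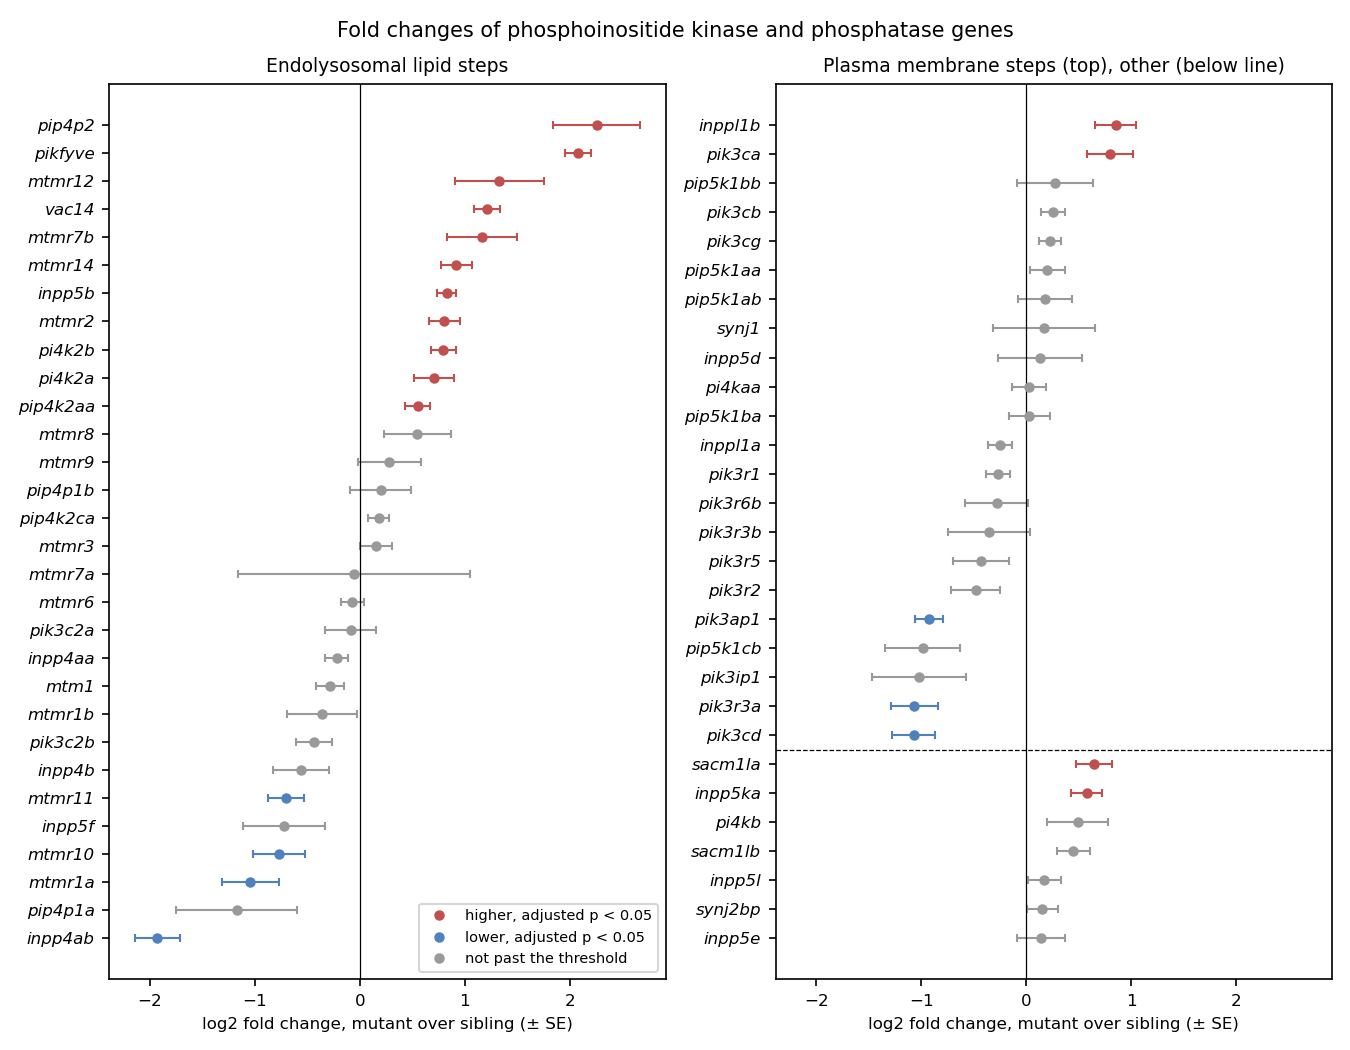
Log2 fold change (mutant over sibling, x axis) with its standard error for the tested genes reported here, endolysosomal on the left, plasma membrane and other compartments on the right. Red genes were higher and blue genes lower at an adjusted p under 0.05 (edgeR quasi-likelihood test), and pip4p2 and pikfyve lie farthest to the right and inpp4ab farthest to the left.

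Libraries held 24940664 to 30911560 counts, and rraga itself stood at 199 ± 14.3 CPM in mutants against 129 ± 9.97 CPM in siblings (SD, n = 4). The rraga transcript was called higher in mutants (log2 fold change 0.63, SE 0.098, edgeR adjusted p = 0.0014). Of 14 markers of the macrophage lineage 13 were in the table, 1 rose and 7 fell. The riser was spi1b (log2 fold change 1.06, edgeR adjusted p = 1.2e-04), and mfap4 and marco were among those that did not pass. The list took 0.564% to 0.665% of counts in mutant libraries against 0.798% to 0.945% in siblings. Its most abundant gene, lcp1, had 2246 to 2677 CPM in mutants and 3502 to 4224 CPM in siblings. Shares in this paragraph are of raw library totals. TMM factors were 0.915 to 0.975 in mutants and 1.00 to 1.11 in siblings. Relative to siblings, mutant shares thus stand lower than with TMM scaling. The 10 tested markers of microglia, of which 2 rose and 6 fell, took 0.652% to 0.770% against 0.768% to 1.32%. mpeg1.1, whose promoter drives the GFP, lay between 41.7 and 89.5 CPM in mutants and between 221 and 250 CPM in siblings (log2 fold change -1.82, edgeR adjusted p = 5.4e-04). Markers of skeletal muscle took 0.0468% to 0.421% against 0.336% to 0.570%, those of epidermis 0.0326% to 0.0898% against 0.0939% to 0.187%, and those of neutrophils 0.0887% to 0.260% against 0.0962% to 0.342%. Lists of erythroid, neuronal, lymphoid and endothelial markers held at most 0.0125% in any library. Genes induced by handling took 0.391% to 0.465% in mutants against 0.930% to 1.00% in siblings, with 10 of 14 lower and 1 higher. No marker in the table was at 0 in all libraries, while gata1a, mylpfa, pvalb2, epcam and igic1s1 did not exceed 10 reads in any. The part of these differences in the results below was not tested. In sorted bulk RNA, fewer cells of a type and less RNA per cell cannot be told apart.

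The PI(3,5)P2 synthesis complex was represented by pikfyve and vac14, and both rose. pikfyve (ENSDARG00000056112, GRCz11 chromosome 9, 32073606 to 32106034), the gene for the only kinase known to make this lipid, had 403, 374, 287 and 353 CPM in mutant libraries 1, 2, 4 and 5, and 89.7, 85.8, 79.4 and 80.5 CPM in sibling libraries 1, 2, 4 and 5. All mutant libraries lay far above all sibling libraries. The log2 fold change was 2.08 (SE 0.122, edgeR adjusted p = 6.7e-06), and it stayed between 1.90 and 2.17 across the alternative settings. Between libraries of the same number it was 2.17, 2.12, 1.85 and 2.13. vac14 (ENSDARG00000014303, chromosome 25, 17589906 to 17613025) encodes the scaffold that assembles the kinase complex. It had 227, 262, 226 and 223 CPM in mutants and 91.5, 121, 105 and 88.2 CPM in siblings, in the same library order, which is kept below. No mutant library overlapped with a sibling library. Its log2 fold change was 1.21 (SE 0.122, edgeR adjusted p = 1.3e-04).

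Taken per kilobase of gene length, the level of pikfyve went from 9.41 ± 0.541 to 39.7 ± 5.55 CPM per kilobase and that of vac14 from 19.02 ± 2.78 to 44.0 ± 3.41 (SD, n = 4). In siblings pikfyve was thus the lower of the pair, and in mutants both stood at a like level per kilobase.

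Genes for active myotubularins, which remove the 3-phosphate of PI3P and PI(3,5)P2, moved in both directions. Of 10 tested genes 3 rose and 1 fell. mtmr14, a distant member of the family also known as Jumpy in mammals, had 205, 255, 192 and 201 CPM in mutants against 105, 139, 115 and 91.2 CPM in siblings. The genotypes did not overlap, and the log2 fold change was 0.92 (SE 0.149, edgeR adjusted p = 0.0018). mtmr2, whose human counterpart is mutated in a demyelinating neuropathy, had 98.3, 101, 83.8 and 87.0 CPM against 52.3, 68.0, 44.1 and 47.6 CPM. These groups too were apart, with a log2 fold change of 0.80 (SE 0.147, edgeR adjusted p = 0.0035). The scarce mtmr7b went from 1.25 ± 0.335 to 2.81 ± 0.833 CPM (SD, n = 4). Its call was lost in 4 of 8 fits that left out a library and with unscaled library sizes. The filter of 5 CPM dropped the gene, so it was not tested there.

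mtmr1a was the active myotubularin gene that fell, here from 10.9 ± 1.08 to 5.29 ± 1.87 CPM (log2 fold change -1.04, SE 0.275, edgeR adjusted p = 0.019). It lies across from cd99l2 on the other strand, and that gene held 476% of its count, so its value is uncertain. Without mutant library 2, sibling library 2 or sibling library 5 it no longer passed (adjusted p of 0.0501, 0.0584 and 0.0513). The founding member mtm1, whose human counterpart is mutated in X-linked myotubular myopathy, stood at 29.6 ± 3.91 CPM in mutants against 35.9 ± 3.75 CPM in siblings, short of the threshold but called lower with unscaled library sizes (adjusted p = 0.0342). mtmr3 and mtmr6 stood at 39.3 ± 8.37 and 69.5 ± 3.86 CPM in mutants against 35.4 ± 1.64 and 72.9 ± 8.39 CPM in siblings, and neither passed. The remaining members, mtmr1b, mtmr7a and mtmr8, did not pass, although mtmr8 was called higher without sibling library 4 (adjusted p = 0.0442). An opposite-strand gene held 142% of the count of mtmr1b.

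A group of myotubularins has lost enzyme activity, and in mammals some of its members bind and steady active ones. Of the 4 tested, mtmr12 rose while mtmr10 and mtmr11 fell. mtmr12 had 4.13, 16.8, 18.4 and 12.7 CPM in mutants and 5.80, 3.06, 6.22 and 5.58 CPM in siblings. Mutant library 1 lay within the siblings and the other three above them. Its log2 fold change of 1.33 (SE 0.426, edgeR adjusted p = 0.043) did not hold with replicate number as a blocking term (adjusted p = 0.0873), by limma-voom (0.227), with upper-quartile factors (0.0507), with unscaled library sizes (0.065) or in 7 of 8 fits without a library. It overlaps zfr on the same strand, which held 268% of its count, so it is uncertain. mtmr10 went from 6.05 ± 0.831 to 3.54 ± 0.971 CPM and lost its call in 7 of 8 fits without a library, with median-of-ratios factors (adjusted p = 0.0517) and without a filter (0.0815). mtmr11 went from 10.6 ± 1.32 to 6.50 ± 0.757 CPM and lost it without sibling library 5 (adjusted p = 0.054). mtmr9 had 8.77 ± 3.58 against 7.22 ± 1.83 CPM, short of the threshold.

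**Figure D2:**
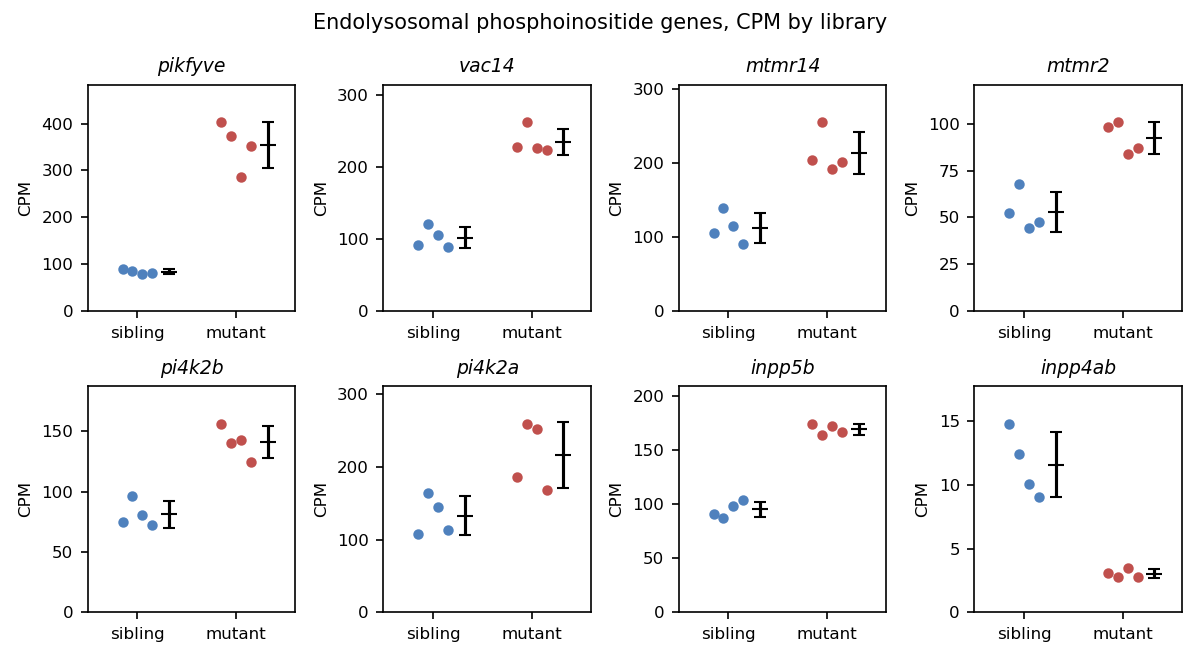
CPM (y axis, from 0) of 8 endolysosomal genes in 4 sibling libraries (blue) and 4 mutant libraries (red), each point being a library in the order 1, 2, 4 and 5, with the mean and SD in black. The mutant libraries of pikfyve lie between 287 and 403 CPM, above all sibling libraries, and those of inpp4ab lie below all sibling libraries.

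PI4P on endosomes and lysosomes is made by type II PI 4-kinases, and both of their genes rose. pi4k2b had 156, 140, 143 and 124 CPM in mutants against 75.3, 96.6, 80.7 and 71.99 CPM in siblings (log2 fold change 0.80, SE 0.121, edgeR adjusted p = 0.0013). pi4k2a, whose product in mammals is recruited to damaged lysosomes, had 186, 259, 252 and 168 CPM against 108, 165, 145 and 113 CPM. Both were without overlap between genotypes, although mutant library 5 of pi4k2a, at 168 CPM, lay just above sibling library 2, at 165 CPM. The log2 fold change of pi4k2a was 0.71 (SE 0.187, edgeR adjusted p = 0.019), and it no longer passed without mutant library 2, sibling library 1 or sibling library 5 (adjusted p of 0.0533, 0.0568 and 0.0525).

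The PI(4,5)P2 4-phosphatases of late endosomes turn PI(4,5)P2 into PI5P, and 1 of their 3 genes rose. pip4p2 (ENSDARG00000056034, chromosome 19, 31404686 to 31431027) had 13.7, 18.6, 26.5 and 10.4 CPM in mutants and 2.67, 2.62, 6.77 and 2.43 CPM in siblings. Library 4 was the highest of each genotype, and the groups did not overlap. Its log2 fold change was 2.26 (SE 0.415, edgeR adjusted p = 0.0035), between same-numbered libraries 2.36, 2.83, 1.97 and 2.09. The related pip4p1b had 9.96 ± 2.56 against 8.69 ± 2.93 CPM, and pip4p1a at 0.624 ± 0.372 against 1.41 ± 0.681 CPM, and neither passed. PI5P is used up by the PI5P 4-kinases. Of these pip4k2aa rose modestly, to 61.9 ± 6.14 CPM from 42.2 ± 4.28 CPM (log2 fold change 0.55, SE 0.119, edgeR adjusted p = 0.0076). pip4k2ca, the highest of the 4 per kilobase in both genotypes, was at 187 ± 10.5 against 165 ± 17.9 CPM and did not pass.

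Phosphatases of PI(3,4)P2 act on early endosomes and showed the largest fall among the members. inpp4ab (ENSDARG00000070995, chromosome 6, 14172884 to 14292329) had 3.10, 2.81, 3.50 and 2.76 CPM in mutants against 14.8, 12.4, 10.1 and 9.06 CPM in siblings. Mutant libraries lay close together and well below the siblings, at a 3.81-fold lower level. The log2 fold change was -1.93 (SE 0.215, edgeR adjusted p = 2.3e-04), between same-numbered libraries -2.25, -2.14, -1.53 and -1.72. Its paralog inpp4aa, more abundant, stood at 51.9 ± 2.55 against 60.5 ± 6.25 CPM (log2 fold change -0.22, SE 0.106). It missed the threshold, and was called lower with unscaled library sizes (adjusted p = 0.0203) and with the filter of 5 CPM (0.0454). inpp4b was at 3.83 ± 1.04 against 5.65 ± 1.11 CPM and did not pass. The difference between the paralogs was not tested.

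inpp5b, for a 5-phosphatase of endosomes and Golgi that is closely related to the Lowe syndrome protein OCRL, had 175, 164, 173 and 167 CPM in mutants against 90.8, 87.8, 98.9 and 104 CPM in siblings. The genotypes were widely apart, with a log2 fold change of 0.83 (SE 0.0906, edgeR adjusted p = 2.1e-04). ocrl itself had 0 to 2 reads per library and was not tested. inpp5f, for a PI4P phosphatase of endosomes, had 2.29 ± 0.671 against 3.78 ± 1.96 CPM, short of the threshold. It lies across from mcmbp, a gene on the other strand with 2108% of its count. Class II PI3-kinases, which make PI(3,4)P2 and PI3P during endocytosis, were scarce. pik3c2a stood at 16.97 ± 4.83 against 18.04 ± 3.57 CPM, and pik3c2b at 11.7 ± 1.26 against 15.8 ± 2.90 CPM. Neither passed. pik3c2b was called lower with replicate number as a blocking term (adjusted p = 0.0455), with unscaled library sizes (0.026), with upper-quartile factors (0.0489) and with the filter of 5 CPM (0.0393).

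Summed over the 34 endolysosomal genes, transcripts came to 1979 ± 90.7 CPM in mutants against 1192 ± 100.3 CPM in siblings (SD, n = 4). Leaving out pikfyve and vac14, the sums were 1390 ± 66.2 and 1007 ± 84.9 CPM. These sums are given as a description.

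**Figure D3:**
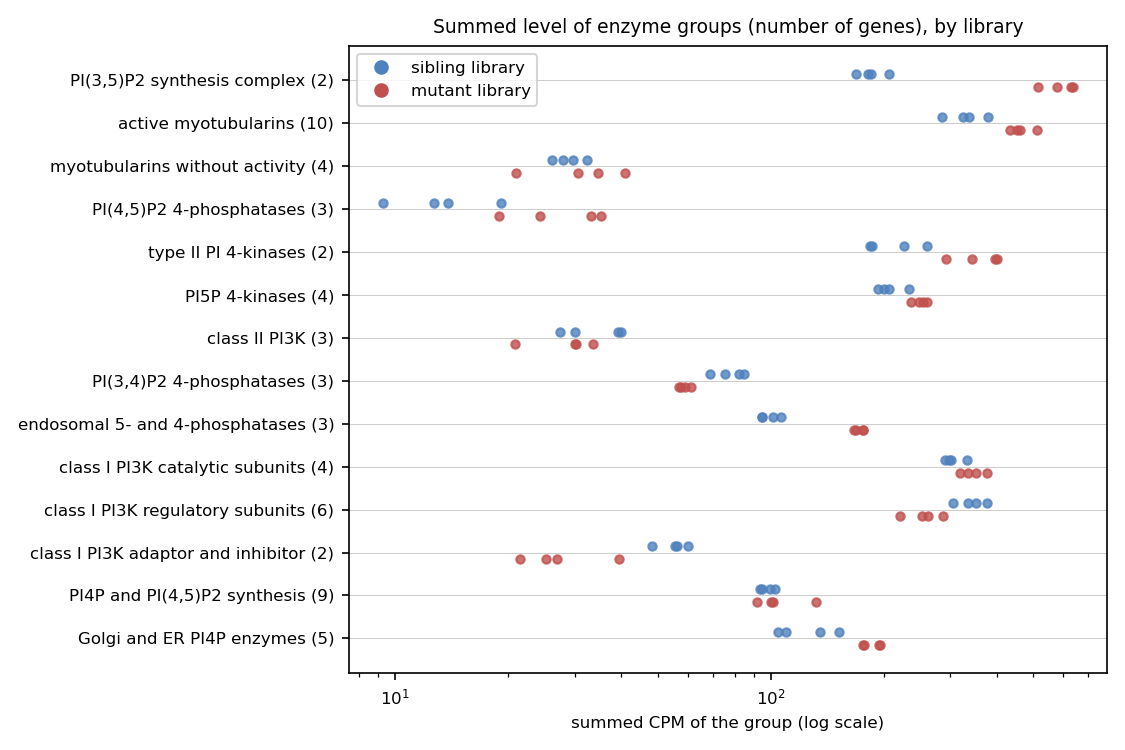
Summed CPM (x axis, log scale) of enzyme groups in 4 sibling libraries (blue) and 4 mutant libraries (red), with the number of genes in brackets. The PI(3,5)P2 synthesis genes summed to 513 to 636 CPM in mutants and 169 to 206 CPM in siblings. The class I regulatory and adaptor groups were lower in mutants, and the plasma membrane group for PI4P and PI(4,5)P2 synthesis overlapped between genotypes.

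At the plasma membrane, SHIP phosphatases remove the 5-phosphate of PIP3, and 1 of their 3 genes rose. inppl1b, for a SHIP2 protein, rose to 7.19 ± 0.912 CPM from 3.98 ± 0.362 CPM (log2 fold change 0.85, SE 0.192, edgeR adjusted p = 0.0093). It lies on chromosome 14, which also carries rraga, at a distance of 18.7 Mb from it. On that chromosome also lie mtmr7a, 16.3 Mb from rraga, which did not pass, and ocrl, 19.7 Mb from it, which was not tested. The more abundant paralog of inppl1b, inppl1a, stood at 36.4 ± 1.94 against 43.3 ± 5.04 CPM. It missed the threshold, and was called lower with unscaled library sizes (adjusted p = 0.0225) and with the filter of 5 CPM (0.04996). inpp5d, for SHIP1, the form of blood cells in mammals, had 1.99 ± 0.410 against 1.81 ± 0.890 CPM and did not pass.

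Class I PI3-kinases make PIP3, and their 4 catalytic subunit genes moved in both directions. pik3cd, for the delta form that is typical of leukocytes, had 15.9, 11.3, 21.1 and 18.1 CPM in mutants against 35.9, 31.2, 29.2 and 43.4 CPM in siblings. All mutant libraries were below all siblings (log2 fold change -1.07, SE 0.207, edgeR adjusted p = 0.0044). pik3ca, for the widely expressed alpha form, had 29.1, 25.1, 20.3 and 41.2 CPM against 13.3, 16.3, 18.003 and 18.9 CPM. Mutant library 4 lay just above the highest sibling and library 5 well above. Its log2 fold change was 0.80 (SE 0.220, edgeR adjusted p = 0.023), and it no longer passed without mutant library 1 (adjusted p = 0.0509), without sibling library 1 (0.065) or with unscaled library sizes (0.0675).

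The more abundant catalytic genes did not pass. pik3cg, for the gamma form that acts below G protein-coupled receptors in leukocytes, had 204 ± 16.6 CPM in mutants against 174 ± 18.1 CPM in siblings (log2 fold change 0.23, SE 0.107). pik3cb, for the beta form, had 95.9 ± 12.3 against 80.2 ± 5.95 CPM (log2 fold change 0.26, SE 0.115). Neither passed (edgeR adjusted p of 0.148 and 0.124), and both passed with replicate number as a block (0.0351 and 0.038). Per kilobase, pik3cg made up 61.2% ± 2.11 of the catalytic level in mutants and 58.9% ± 3.11 in siblings, and pik3cb 25.7% ± 1.99 and 24.3% ± 1.29. The share of pik3cd was 4.83% ± 1.47 in mutants against 11.3% ± 2.32 in siblings, with every mutant library, at up to 6.55%, below every sibling library, at 9.27% or more. The share of pik3ca was 8.26% ± 2.44 against 5.39% ± 0.950. In siblings pik3cd thus held the larger share of the pair and in mutants, by the means, the smaller.

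**Figure D4:**
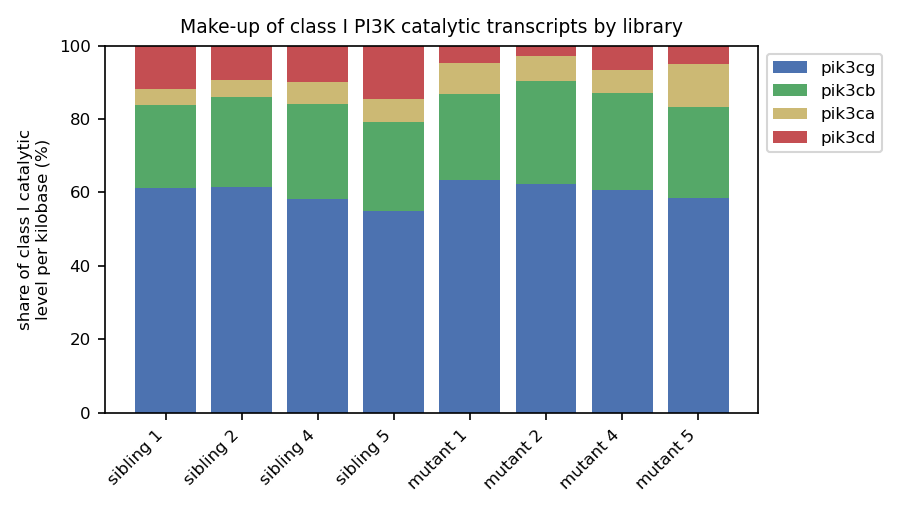
Share (y axis, percent) of each class I PI3-kinase catalytic gene in their summed level per kilobase, for the 8 libraries. pik3cg takes 54.9% to 63.3% in each library, and pik3cd takes 2.97% to 6.55% in mutants and 9.27% to 14.4% in siblings.

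Regulatory subunits hold class I kinases at receptors and keep them inactive until needed. Of 6 tested genes 1 fell and 0 rose by edgeR's quasi-likelihood test, while at an unadjusted p under 0.05 the counts were 2 and 0, and DESeq2 and limma-voom each gave 1 and 0. pik3r3a, for a gamma-type subunit, had 25.1, 45.4, 31.5 and 24.1 CPM in mutants against 60.7, 82.1, 70.0 and 51.6 CPM in siblings. The groups did not overlap, library 2 being the highest in each (log2 fold change -1.07, SE 0.224, edgeR adjusted p = 0.0067). pik3r1, the most abundant, stood at 181 ± 25.8 against 218 ± 14.6 CPM and missed the threshold (adjusted p = 0.118). It was called lower with replicate number as a block (0.0447), with unscaled library sizes (0.0272) and with the filter of 5 CPM (0.0471). pik3r5, a partner of the gamma form, was at 27.7 ± 9.19 against 37.2 ± 11.2 CPM and passed only with the block (adjusted p = 0.0101, against 0.269 without it). The other regulatory genes, pik3r2, pik3r3b and pik3r6b, had log2 fold changes of -0.48 to -0.28 and did not pass.

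Of the adaptor and the inhibitor of the kinase, the adaptor gene fell. pik3ap1, for the adaptor BCAP that links toll-like and B-cell receptors to PI3-kinase, had 19.4, 16.9, 19.8 and 17.5 CPM in mutants against 28.8, 40.2, 35.3 and 35.8 CPM in siblings. The genotypes were clearly apart (log2 fold change -0.93, SE 0.132, edgeR adjusted p = 9.0e-04). It lies across from kif1bp on the other strand, which held 50.1% of its count, so its value is uncertain. pik3ip1, for a membrane inhibitor of the kinase, was picked after its values were seen. It had 7.52, 4.52, 5.33 and 21.8 CPM in mutants against 19.5, 19.8, 20.8 and 19.7 CPM in siblings. Library 5 of the mutants alone was as high as the siblings, and the gene did not pass (edgeR adjusted p = 0.121). It was called lower with replicate number as a block (0.0381), by limma-voom (0.0306) and without mutant library 5 (5.2e-04). Whether the lower share of macrophage markers given above had a part in any change of the class I PI3-kinase genes was not tested.

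**Figure D5:**
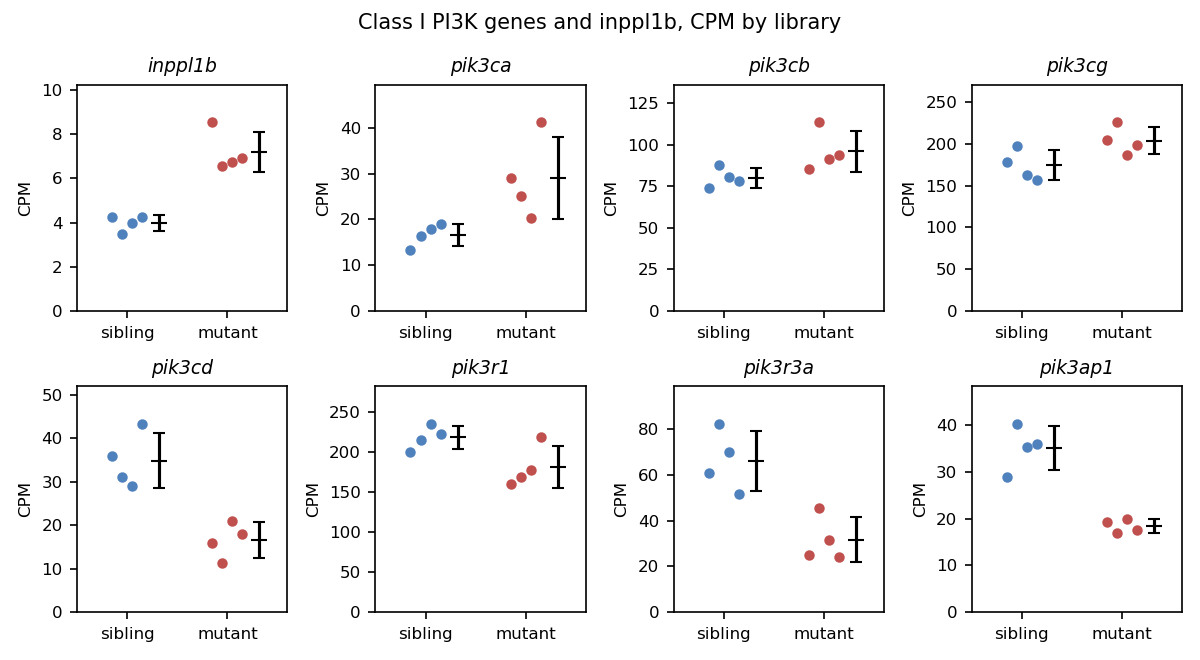
CPM (y axis, from 0) of inppl1b and 7 class I PI3-kinase genes in 4 sibling libraries (blue) and 4 mutant libraries (red), in the order 1, 2, 4 and 5, with the mean and SD in black. inppl1b lies at 6.58 to 8.54 CPM in mutants, above all siblings, and pik3cd, pik3r3a and pik3ap1 lie below all siblings.

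Kinases that supply PI4P and PI(4,5)P2 to the plasma membrane did not pass the test. Of 6 tested genes 0 rose and 0 fell by edgeR's quasi-likelihood test, while at an unadjusted p under 0.05 the counts were 0 and 1, for DESeq2 0 and 0, and for limma-voom 0 and 1. pip5k1ba stood at 34.1 ± 6.49 against 33.4 ± 7.35 CPM, pip5k1bb at 29.5 ± 12.1 against 24.4 ± 9.89 CPM and pip5k1aa at 23.3 ± 1.98 against 20.3 ± 4.47 CPM. All are PI4P 5-kinase genes, and their log2 fold changes had standard errors of 0.195, 0.360 and 0.167. pi4kaa, for the PI 4-kinase of the plasma membrane, was at 10.5 ± 1.49 against 10.2 ± 0.903 CPM. pip5k1cb, at 1.23 ± 0.485 against 2.43 ± 0.270 CPM, was the one gene of the group whose genotypes did not overlap (adjusted p = 0.0669), and it was called lower with unscaled library sizes (0.0344) and by limma-voom (0.0261). synj1, for the synaptojanin that strips clathrin-coated vesicles of PI(4,5)P2, had 2.77 ± 1.31 against 2.46 ± 1.18 CPM and did not pass.

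In the Golgi and endoplasmic reticulum, 2 of 4 tested genes rose. sacm1la, for the SAC1 phosphatase that consumes PI4P, had 68.6, 89.3, 63.2 and 79.3 CPM in mutants against 39.5, 59.3, 54.1 and 39.3 CPM in siblings (log2 fold change 0.64, SE 0.173, edgeR adjusted p = 0.021). inpp5ka, for a 5-phosphatase of the endoplasmic reticulum, had 50.2, 38.7, 46.4 and 50.1 CPM against 31.1, 24.0, 35.8 and 33.4 CPM (log2 fold change 0.58, SE 0.150, edgeR adjusted p = 0.018). Both were apart between genotypes, and neither passed with unscaled library sizes (adjusted p of 0.0589 and 0.0682). sacm1la was lost without mutant library 2 (0.057) or sibling library 1 (0.0597) and inpp5ka without mutant library 1 (0.0508). sacm1lb had 15.1 ± 1.26 CPM in mutants against 11.04 ± 1.78 CPM in siblings, and pi4kb, the Golgi PI 4-kinase gene, 49.0 ± 16.4 against 34.9 ± 12.6 CPM. Neither passed (adjusted p of 0.0571 and 0.248), and both passed with replicate number as a block (0.0265 and 0.0126), so that 4 genes outside the endolysosome and plasma membrane were higher there. sacm1lb was also called higher by DESeq2 (0.0185), by limma-voom (0.0393), with median-of-ratios factors (0.0425) and without sibling library 2 (0.0257). Beyond the Golgi and endoplasmic reticulum, inpp5l, which was given no compartment, stood at 43.6 ± 8.77 against 38.7 ± 4.06 CPM, inpp5e of the cilium at 5.46 ± 1.16 against 4.95 ± 0.664 CPM, and synj2bp, a synaptojanin-binding protein gene that encodes no lipid enzyme, at 17.2 ± 2.48 against 15.5 ± 1.51 CPM, and none passed.

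The median sibling level was 50.5 CPM for the 16 that rose, 11.6 CPM for the 7 that fell and 15.5 CPM for the 37 that did not pass. Of the 37, 22 had under 20 CPM in both genotypes, as did 4 of the genes that rose and 4 of those that fell. In 22 of the 23 called genes all 4 same-numbered pairs of libraries went the same way, mtmr12 being the exception. The genotypes did not overlap in those 22 genes, so any pairing of libraries would give this count, and it adds no evidence.

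Other genes of these pathways were read from lists of partners and readers. Over all tested genes 14.5% were called higher and 13.9% lower, and whether any list departed from those shares was not tested. The class III PI3-kinase complex makes the PI3P from which PIKfyve starts. Of 8 genes for this complex and its regulators, 2 rose and 1 fell. The catalytic pik3c3 rose to 131 ± 19.4 CPM from 54.6 ± 14.8 CPM (log2 fold change 1.27, SE 0.200, edgeR adjusted p = 0.0016) and its partner pik3r4 from 39.97 ± 2.29 to 63.7 ± 9.38 CPM, while ambra1a, an autophagy regulator, fell from 8.91 ± 1.05 to 5.31 ± 1.02 CPM. Of 22 readers of PI3P and PI(3,5)P2, 7 rose and 2 fell. mcoln1a, a lysosomal calcium channel opened by PI(3,5)P2, went from 48.5 ± 4.96 to 203 ± 23.5 CPM, zfyve26 from 20.5 ± 1.52 to 37.6 ± 3.86 CPM, and the PI3P-binding wipi1 from 8.51 ± 1.56 to 19.01 ± 2.58 CPM.

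Among 31 genes that read PIP3 or act around it, 3 rose and 8 fell. akt2l, an AKT family kinase gene, had 8.91, 7.85, 9.89 and 11.03 CPM in mutants against 45.7, 38.9, 39.8 and 37.7 CPM in siblings, far apart (log2 fold change -2.10, SE 0.142, edgeR adjusted p = 1.3e-05). The most abundant AKT gene, akt2, had 96.7 ± 5.44 against 110 ± 19.6 CPM and did not pass (edgeR adjusted p = 0.322). akt1 rose from 8.51 ± 2.47 to 13.9 ± 2.33 CPM (edgeR adjusted p = 0.041). akt3a fell from 5.26 ± 0.743 to 2.96 ± 0.805 CPM (edgeR adjusted p = 0.043), and akt3b did not pass. pdpk1a, for the kinase PDK1 that activates AKT, rose from 23.2 ± 3.70 to 44.2 ± 0.874 CPM, and cyth4a, for a cytohesin that binds PIP3, fell from 36.3 ± 10.02 to 12.9 ± 3.19 CPM. The medians of the log2 fold changes were -0.22 for this list, 0.15 for the readers of endosomal lipids and -0.01 for the class III genes, beside -0.09 for all tested genes. Of 18 genes for lipid supply, lipid transfer, PI4KA partners and phospholipases C 4 rose and 1 fell, where 28.4% of all tested genes were called in either direction. The gene that fell and plcd1a, among those that rose, encode phospholipases C, so the counts do not describe supply alone. The genes named from this list are those with the smallest p. efr3ba, a membrane anchor of the PI4KA complex, rose from 22.2 ± 2.34 to 121 ± 30.9 CPM, plcd1a, a phospholipase C gene, from 5.32 ± 1.54 to 14.1 ± 2.75 CPM, and the lipid transfer gene pitpnaa from 656 ± 101.7 to 1078 ± 108.8 CPM.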

How the data were processed

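Raw read counts per Ensembl gene were deposited by the authors for 8 libraries. The submitters' processing notes list build GRCz11 and the tools featureCounts 1.5.0, HISAT2 2.0.5 and StringTie 1.3.3b, with no roles. For strandedness, a setting was not given in the sources read. The table's 16 other per-library columns were not used. Gene lengths from the table gave levels per kilobase.

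Columns were assigned to a genotype by name. Their numbers, 1, 2, 4 and 5, differ from those in the titles, so libraries carry column numbers. Deviations from the genotype mean went together in same-numbered libraries (correlations of 0.18 to 0.412, against -0.251 to 0.0119 for other pairs), so the numbers were taken as pairs. The main test leaves them out. Chi-square per degree of freedom was 50.1 or more between libraries of a genotype.

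R 4.3.3, edgeR 4.0.16, limma 3.58.1 and DESeq2 1.42.0 were used. The filterByExpr function (minimum count 10) kept 16086 genes. After TMM scaling, edgeR's quasi-likelihood test was run two-sided with Benjamini-Hochberg adjustment over all tested genes. A standard error was the log2 fold change divided by the square root of F. CPM used TMM-scaled library sizes, except in the filter of 5 CPM, which came before the scaling. Alternatives were other factors, other filters, DESeq2, limma-voom, robust quasi-likelihood, the replicate block and each library left out. The procedure was tested on simulated counts of independent libraries, without pairs and with far fewer changed genes than were called here. Its outcome is not reported here and does not cover paired libraries.

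The naming rule took members that passed the test or reached 20 CPM. Some others are named to fill out their group, and pik3ip1 was picked after its values were seen. The named partners were the 3 with the smallest p of each list, with the other AKT genes added beside akt2l. Members and lists were chosen with earlier results of these data known, and synj2bp and inpp5l were moved to the other compartments after the table was seen. Overlap with another gene was reported from 10% of a count. Paralogs may share reads. Protein and promoter sequences were not used here. Some members are counted but not reported here by name.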

Additional observations from a re-analysis of the deposited data

Results flagged for a closer look

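In 5 of the 76 groups of 4 libraries checked, 1 library stood apart from the others of its genotype by Dixon's criterion, which flags about 1 group in 20 by chance. vac14 was 262 CPM in mutant library 2, against 223 to 227 CPM in the other mutants. mtmr6 was 60.5 CPM in sibling library 5, against 76.0 to 78.6 CPM in the other siblings. pip4p2 was 6.77 CPM in sibling library 4, against 2.43 to 2.67 CPM in the other siblings. inpp4aa was 55.7 CPM in mutant library 2, against 50.3 to 51.0 CPM in the other mutants. inppl1b was 8.54 CPM in mutant library 1, against 6.58 to 6.91 CPM in the other mutants.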

How the results depend on the processing

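The count of called members, 23, ran from 17 to 30 over 17 alternatives, and from 17 to 22 when a library was left out. Leaving out a library, the endolysosomal count, 15, ran from 9 to 15 and that of other compartments, 2, from 1 to 3. In those fits calls over the whole table also went down, from 4567 to between 3626 and 4236. With replicate number as a block, plasma membrane calls went from 6 to 11 and those of other compartments from 2 to 4, where calls over the whole table went from 4567 to 5530, and mtmr12 lost its call, while no other member lost one. With unscaled library sizes, edgeR called 0 members of other compartments, while 3 members there had an unadjusted p under 0.05 with TMM factors and 3 were called by DESeq2. Among the 38 genes taken by the naming rule, the sign turned for 3 that did not pass the test: pip5k1ba with upper-quartile factors (-0.038), unscaled library sizes (-0.15), the filter of 5 CPM (-0.038), and without mutant library 5 (-0.046) or sibling library 4 (-0.11, against up to 0.16 without sibling library 2), mtmr3 with unscaled library sizes (-0.018), and mtmr6 without mutant library 5 (0.0092, against down to -0.12 without sibling library 5). Of the scarcer members, which are outside these 38, pi4kaa (-0.15), inpp5d (-0.047), inpp5e (-0.024) and synj2bp (-0.019) turned with unscaled library sizes and mtmr7a (0.019) with replicate number as a block, and their other alternatives are not listed here. The cause of these changes was not tested. Among the values of those 38 genes under the alternatives, 586 kept direction and side of the threshold, 40 lost the call, 12 gained one and 7 changed sign. The effect of depth on the calls was not tested.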
